A study of Mus musculus with 4 samples.

Results

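The genes described here are the xenobiotic-metabolizing enzyme gene Cyp1a1 and 5 further genes of the aryl hydrocarbon receptor (AhR) pathway, Cyp1b1, Ahrr, Tiparp, Ahr and Arnt, which are 6 of the 32285 genes in each count table. They were chosen by name and with earlier results of these data known, the level of Cyp1a1 in vaped (V) and non-vaped (NV) lungs among them. For that reason the difference between V and NV in these genes is given as a description with no test. The study placed cryosections of the upper pulmonary branches of C57BL/6J mice on Visium slides. Barcoded spots of these slides capture polyadenylated RNA from the overlying tissue, and every captured molecule carries a unique molecular identifier (UMI). The V group comprised 1 male and 1 female exposed from young adulthood in whole-body chambers to vapor of a Peach Ice flavored juice from JUUL pens, 4 h daily, with 5 exposure days a week for 9 weeks in all. The NV group comprised 1 male and 1 female without that exposure, and the labels and methods name no engineered allele in either group. Each mouse gave 1 section, so differences between V and NV cannot be told apart from differences between single mice or between the tissue that each section happened to hold.

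The AhR is a ligand-activated transcription factor that waits in the cytosol in a complex with the chaperone Hsp90. On binding a ligand, such as a polycyclic aromatic hydrocarbon of smoke or a product of tryptophan breakdown, it moves to the nucleus, pairs with Arnt and binds DNA at xenobiotic response elements with the core GCGTG. In the lung it is best known for inducing Cyp1a1 in endothelial and epithelial cells after inhaled combustion products, and Cyp1b1, Ahrr and Tiparp are textbook targets of the same receptor.

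The promoters of the 3 targets whose levels behaved least alike in these sections are printed here as the 250 bases before the RefSeq start on GRCm38.p6, 5′ to 3′ on the strand of the gene, with capitals for each GCGTG or its reverse complement. Cyp1a1 lies at chr9:57687928-57703824 on the plus strand, Cyp1b1 at chr17:79701537-79715061 on the minus strand and Ahrr at chr13:74211118-74292331 on the minus strand. None of the 3 windows overlaps an annotated exon of its gene, and that of Cyp1a1 lies within the gene as annotated because a longer transcript starts upstream.
Cyp1a1, chr9:57697363-57697612: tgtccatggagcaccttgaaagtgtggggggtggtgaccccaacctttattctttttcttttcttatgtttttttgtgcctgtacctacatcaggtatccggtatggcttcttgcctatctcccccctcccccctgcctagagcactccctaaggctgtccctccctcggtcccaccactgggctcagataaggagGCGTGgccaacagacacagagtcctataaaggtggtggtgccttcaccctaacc
Cyp1b1, chr17:79715062-79715311: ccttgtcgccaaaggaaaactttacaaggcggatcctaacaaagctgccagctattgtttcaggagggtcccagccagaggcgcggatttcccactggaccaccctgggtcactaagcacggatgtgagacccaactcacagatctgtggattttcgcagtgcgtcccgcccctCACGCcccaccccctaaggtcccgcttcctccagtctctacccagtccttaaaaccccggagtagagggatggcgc
Ahrr, chr13:74292332-74292581: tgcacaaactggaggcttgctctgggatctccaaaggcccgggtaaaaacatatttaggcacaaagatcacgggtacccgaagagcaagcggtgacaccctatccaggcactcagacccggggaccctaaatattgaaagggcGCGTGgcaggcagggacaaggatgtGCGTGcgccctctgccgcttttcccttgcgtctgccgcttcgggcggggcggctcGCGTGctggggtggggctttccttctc

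Cyp1a1 held 1 core, 54 bases before its start, and Cyp1b1 held 1 on the opposite strand, 76 bases before its start. Ahrr, which was close to absent from the counts, held 3, at 107, 82 and 27 bases before its start, the last of them in the longer form TNGCGTG. The windows of Tiparp (chr3:65528410-65555518, plus strand) and Arnt (chr3:95434388-95497240, plus strand) held 1 core each and are not printed because they run into annotated exons. A RefSeq window was matched for 5 of the 6 genes, and for Ahr (chr12:35497974-35535038, minus strand) none was. Over both strands, 28.2% of 32851 promoter windows of 27025 genes held the core and 4.10% the longer form, so that a single core is common and these matches are a description of letters only. Bases farther upstream were not searched, and whether the receptor binds any of these matches was not tested.

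Sections held 473 to 2053 spots and 6957392 to 34308556 UMIs. Spots in which 6 parenchyma markers (the epithelial Sftpb, Sftpc, Cldn18 and Hopx with the endothelial Calcrl and Tmem100) reached at least 50% of their share over all spots were taken as parenchyma and the others as upper airway. The name upper airway stands for this rule alone. Cardiac muscle spots, in which at least 1% of UMIs came from 6 cardiac markers, made up 136 of its 158 spots in the NV male, 50 of 125 in the NV female and 144 of 433 in the V female, so comparisons of regions are also given without them. The V male section stood apart, with 1564 parenchyma spots and 1 upper airway spot against 125 to 433 upper airway spots in the other 3, so it entered no comparison of regions. Over its parenchyma spots the summed level of 6 cardiac muscle markers was 10.5 CPM (UMIs per 1000000 UMIs) against 2619 to 4019 in the other sections, that of 4 club cell markers was 287 CPM against 1248 to 11257, and 3 of 5 ciliated cell markers were at 0. Neutrophil markers summed to 580 CPM there against 108 to 258 elsewhere. General endothelial markers were also highest there, at 3854 CPM against 2907 to 3075 CPM elsewhere. In a section, fewer cells of a type and less RNA per cell cannot be told apart. Sections shared 277 to 1167 barcodes, as slides of 1 design carry the same set.

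Cyp1a1, which encodes a cytochrome P450 that oxidizes polycyclic aromatic hydrocarbons, was abundant in the lung of the V male and rare in the other 3 lungs. Parenchyma spots held 1377 Cyp1a1 UMIs in the V male, or 116 CPM with a 95% Poisson interval of 109.9 to 122. The V female held 103 UMIs, or 5.52 CPM (4.50 to 6.69). For the controls, 21 UMIs (male) and 11 UMIs (female) gave 2.91 CPM (1.80 to 4.45) and 2.92 CPM (1.46 to 5.22). These intervals, like every other interval here, cover counting error only. The values of both V mice thus lay above those of both NV mice, although the counting intervals of the V female and NV female overlap. The V male exceeded the V female by 21.0 times, more than the V female exceeded the NV female (1.89 times). The group means were 60.7 ± 78.1 CPM in V and 2.92 ± 0.006 CPM in NV (SD, n = 2), a spread within V larger than its mean. For scale, of 14348 genes with enough counts, 15.6% had both V mice above both NV mice and 16.2% had both below.

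**Figure D1:**
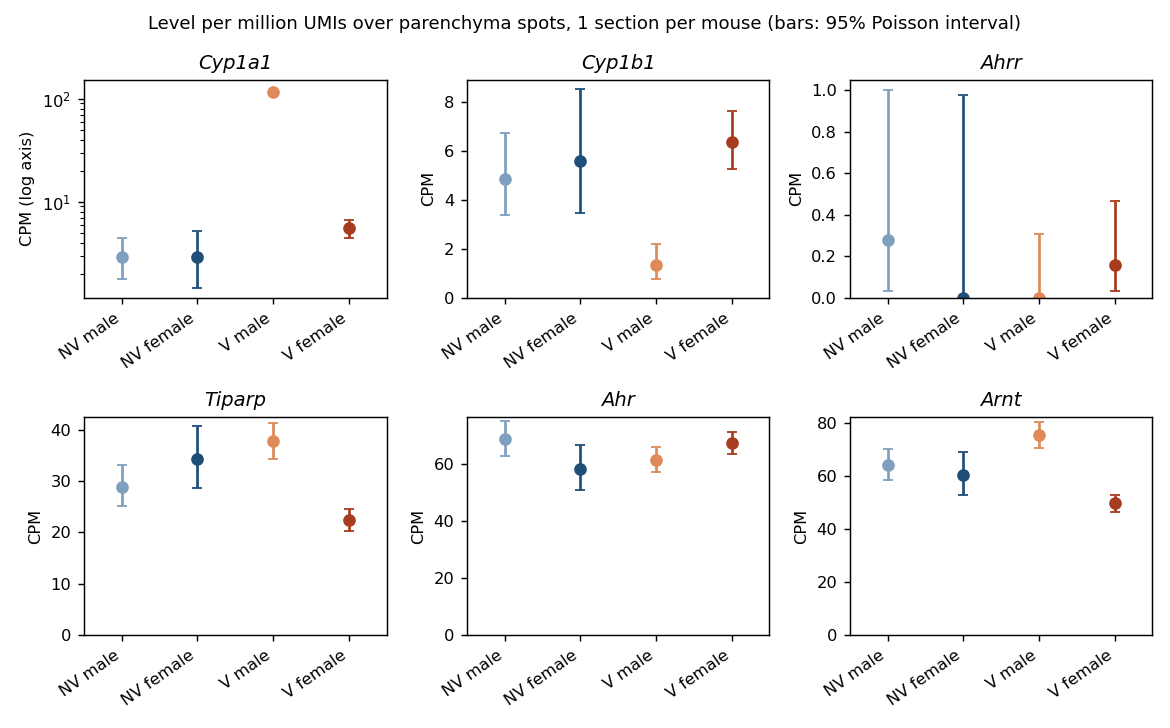
Level of the 6 genes over parenchyma spots of each section in CPM (vertical axes, logarithmic for Cyp1a1 and linear from 0 for the others), with 95% Poisson intervals of the counts. Cyp1a1 stands at 116 CPM in the V male and at 2.91 to 5.52 CPM in the other 3 sections, whereas Cyp1b1 is lowest in the V male and Ahrr is at or near 0 throughout.

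No other gene at 10 CPM or more in the V male exceeded the other 3 mice to the same degree. Genes below that level in the V male were not ranked. Among 9719 genes at 10 CPM or more in V male parenchyma, after TMM scaling of the sums, Cyp1a1 had the highest ratio of the V male to the highest of the other 3 mice, at 20.3. The next gene, Tcf23, reached 6.80, followed by the neutrophil gene Retnlg at 6.56. By the same measure Arnt ranked 1449 with a ratio near 1, Tiparp ranked 1869 and Ahr ranked 6182. This ranking was added after the values had been seen and carries no test. Cyp1a2, the hepatic relative that lies next to Cyp1a1 on chromosome 9 and is another AhR target, had 0 UMIs in both NV sections' parenchyma and 1 UMI in each V section's.

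**Figure D2:**
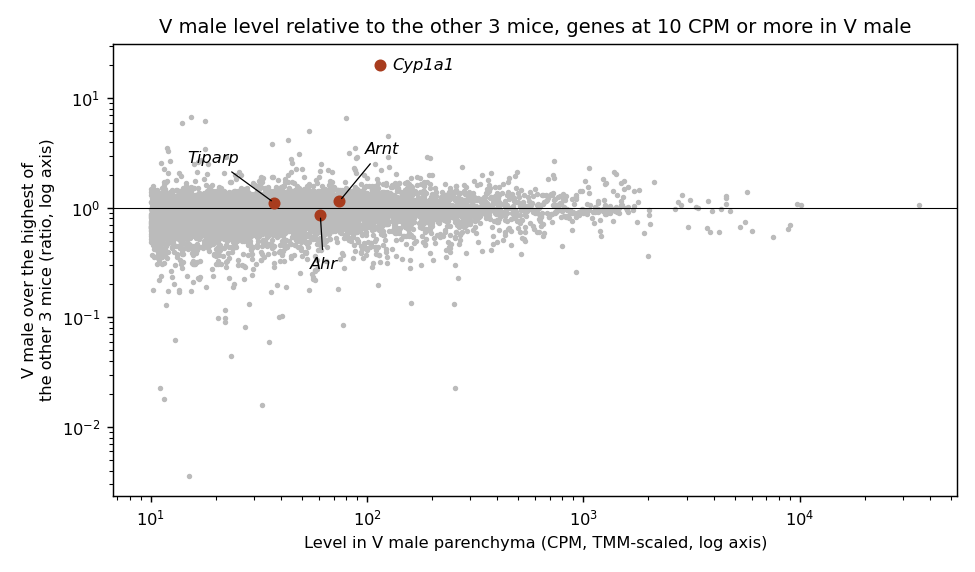
Ratio of the level in the V male to the highest level among the other 3 mice (vertical axis, logarithmic) against the level in V male parenchyma in TMM-scaled CPM (horizontal axis, logarithmic), 1 point for each gene at 10 CPM or more in the V male. Cyp1a1 at 20.3 lies apart from all other genes plotted, while Tiparp, Arnt and Ahr lie close to a ratio of 1.

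In the V male, Cyp1a1 was found in many spots rather than in a few. At least 1 UMI was found in 763 of 1565 spots (48.8%), with 413 spots holding 1 UMI, 198 holding 2, 93 holding 3, 31 holding 4 and 28 holding 5 or more, up to 12. The 10% of spots with the most held 41.8% of its UMIs. In the other sections no spot held more than 2 UMIs. Because spots differ in depth, each was also thinned to 3000 UMIs, leaving out shallower spots (39 to 220 per section). The share of parenchyma spots with a Cyp1a1 UMI was then 28.0% (exact 95% binomial interval 25.6 to 30.4) for the V male but 1.71% (1.10 to 2.54) for the V female. For the NV male and NV female it was 0.495% (0.102 to 1.44) and 0.647% (0.0785 to 2.32). Unthinned, those shares were 48.8%, 5.80%, 2.92% and 2.59%, with median depths of 6259.5, 9046, 9848 and 9518 UMIs per spot. Thinned, the variance of the Cyp1a1 count over spots of the V male was 1.13 times its mean. That was above the values of 0.998 for Ahr, 1.03 for Arnt and 1.01 for Tiparp in the same spots.

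**Figure D3:**
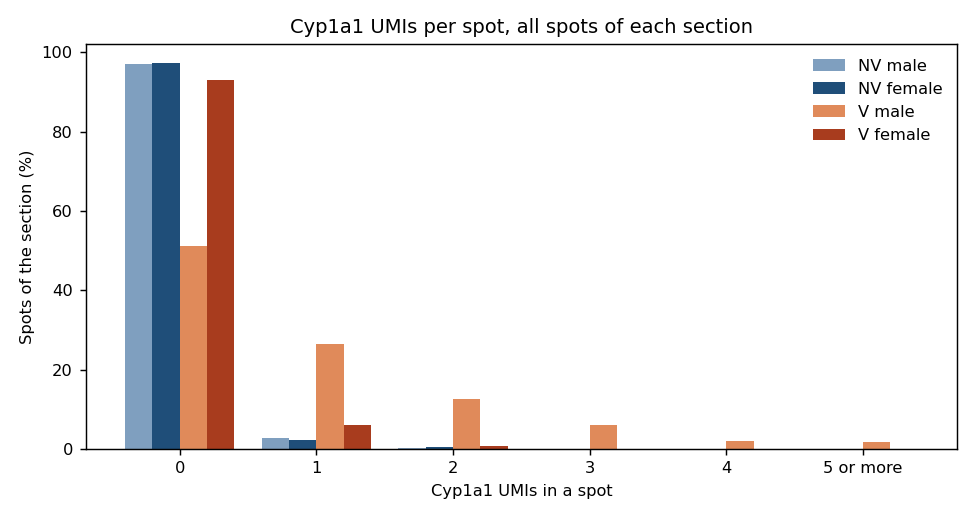
Share of all spots of each section (vertical axis, percent) by the number of Cyp1a1 UMIs in the spot (horizontal axis), unthinned. In the V male 51.2% of spots hold none and 1.79% hold 5 or more, while no spot of the other sections holds more than 2.

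The cardiac muscle spots of the upper airway served as tissue other than lung. After thinning, 0 of 106 such spots (NV male), 0 of 49 (NV female) and 2 of 144 (V female) held a UMI. The V female share was thus 1.39% (0.169 to 4.93), and counts of 0 allow shares of up to 2.83% and 6.12%. Their median depths before thinning were 9042.5, 30595 and 33475 UMIs. Outside the V male, the shares in parenchyma therefore could not be told from those in cardiac muscle spots at this depth. The V male held no cardiac muscle spot, so a background share of this kind cannot be given there. Barcodes at which the V male held Cyp1a1 showed it in 6.71% of V female spots, against 8.15% at barcodes where the V male held none.

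Within the V male, Cyp1a1 was found in spots of every cell makeup examined. Spots were ranked by the share of UMIs from each of 9 marker lists and cut into quartiles, and the 36 quartile levels lay between 99.3 and 131 CPM. The lists of large vessel and lymphatic endothelium were added to this ranking after their values had been seen. From the lowest to the highest quartile of general endothelial markers the level went from 106 CPM (93.4 to 121) to 116 CPM (104 to 129). Across quartiles of alveolar type 2 cell markers it went from 116 CPM (103 to 129.6) to 103 CPM (92.1 to 115), and for smooth muscle from 111 CPM (97.9 to 126) to 117 CPM (104 to 130.4). For large vessel markers it went from 106 CPM (93.0 to 119.8) to 126 CPM (114 to 139), and for lymphatic markers from 131 CPM (115 to 149) to 124 CPM (112 to 138). Read the other way, lymphatic markers summed to 312, 343, 411 and 439.7 CPM in spots with 0, 1, 2 and 3 or more Cyp1a1 UMIs, and large vessel markers to 544.5, 626, 600.1 and 645 CPM. Median depth rose over the same spots from 4862 to 12461 UMIs, and its part in these levels was not tested. By depth, it was 97.0 CPM in the shallowest quartile of spots and 114 to 120 CPM in the others. In the V female, where the counts were small, it was 3.59 CPM (2.05 to 5.84) in the lowest and 8.73 CPM (6.15 to 12.04) in the highest quartile of general endothelial markers, whereas it went from 7.60 to 5.14 CPM for fibroblast markers and from 4.34 to 5.49 CPM for alveolar type 2 cell markers. These are levels within 1 section each, with no replicate.

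**Figure D4:**
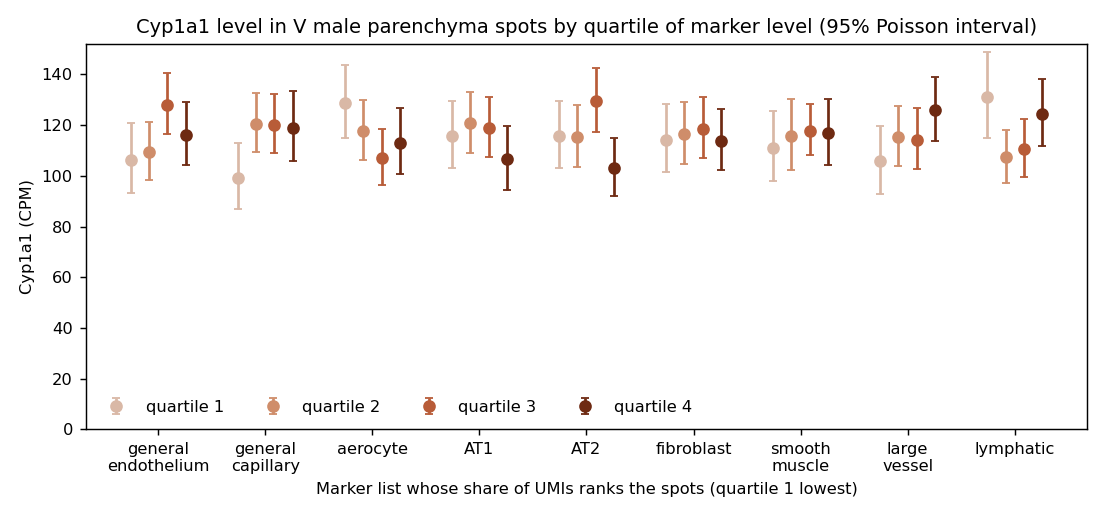
Cyp1a1 level in V male parenchyma spots (vertical axis, CPM, from 0) by quartile of the share of UMIs from each of 9 marker lists (horizontal axis), with 95% Poisson intervals. The 36 points lie between 99.3 and 131 CPM, and the intervals of the lowest and highest quartiles overlap for every list.

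Cyp1b1, a related P450 of mesenchymal cells that oxidizes hydrocarbons and estrogens, did not follow Cyp1a1. Parenchyma of the V male held 16 UMIs, or 1.35 CPM (0.770 to 2.19), whereas that of the V female held 119 UMIs, or 6.37 CPM (5.28 to 7.63). Among controls, the male held 35 UMIs, or 4.85 CPM (3.38 to 6.75), and the female held 21 UMIs, or 5.57 CPM (3.45 to 8.52). The mouse with the highest Cyp1a1 level therefore had the lowest Cyp1b1 level, and the groups overlapped. Summed smooth muscle markers were also lowest there, at 112 CPM against 173 to 273 CPM, whereas fibroblast markers were highest there (5224.5 against 4326 to 4847 CPM) and pericyte markers were not lower (358.8 against 321 to 358.6 CPM). The part of these cells in the Cyp1b1 level was not tested.

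Ahrr encodes a repressor that competes with the AhR for Arnt and is itself a receptor target. Its parenchyma counts were 2 UMIs for the NV male and 3 UMIs for the V female, with 0 for each of the other mice. In the V male, a count of 0 among 11880242 UMIs allows a level of up to 0.253 CPM, against 116 CPM for Cyp1a1 in the same spots. At this depth no difference in Ahrr was detectable.

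Tiparp, a mono-ADP-ribosyltransferase that is induced by the AhR and restrains it, was highest in the V male and lowest in the V female, with both NV mice between. From the highest to the lowest, the V male had 37.7 CPM (34.3 to 41.4), the NV female 34.2 CPM (28.6 to 40.7), the NV male 28.8 CPM (25.05 to 33.0) and the V female 22.4 CPM (20.3 to 24.6). Neighbours in this order have overlapping counting intervals, except for the NV male and V female. V and NV overlapped, at 30.0 ± 10.8 and 31.5 ± 3.82 CPM (SD, n = 2).

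The receptor and its partner were present in every lung at levels that varied much less than that of Cyp1a1. Ahr had 69.0 and 58.4 CPM in the NV male and female and 61.5 and 67.4 CPM in their V counterparts, or 64.5 ± 4.14 CPM in V and 63.7 ± 7.53 CPM in NV (SD, n = 2). Arnt had 64.0 CPM (NV male), 60.5 CPM (NV female), 75.3 CPM (V male) and 49.7 CPM (V female), so the V mice were the highest and the lowest of the 4. Neither gene separated V from NV.

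Across all genes, edgeR's quasi-likelihood test of V against NV in parenchyma called 0 of 14348 genes (percent called 0) with both thresholds applied, a log2 fold change beyond 0.25 in either direction and an adjusted p (Benjamini-Hochberg) below 0.05. At an unadjusted p under 0.05 there were 380 genes, and DESeq2's Wald test called 9. There were 1483 calls without the V female and 291 without the V male. With 2 mice against 2 the smallest two-sided p that an exact permutation test of a single gene allows is 0.333. The fitted log2 fold changes of the members, as a description, were 4.35 (SE 1.51) for Cyp1a1, −0.38 (SE 0.76) for Cyp1b1, −0.06 (SE 0.27) for Tiparp, 0.02 (SE 0.17) for Ahr and 0.01 (SE 0.22) for Arnt, while Ahrr had too few counts to be fitted. Without the V male the value for Cyp1a1 was 0.95.

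The other genes of the pathway gave no shared change. Of 14 other AhR-responsive genes, 6 had enough counts, none was called, and their median log2 fold change was 0.01 against 0.01 over all genes tested. Nfe2l2, the regulator of antioxidant genes, lay between 157 and 181 CPM in all 4 mice. Cyp2s1, an epithelial P450, was 5.72 CPM for the V male but 22.1 CPM for the V female, below and above both NV mice (13.3 and 15.7 CPM). Aldh3a1, an aldehyde dehydrogenase of airway epithelium singled out after its values had been seen, was higher in V without overlap, as were 15.6% of genes tested. The V male had 43 UMIs (3.62 CPM) and the V female 145 UMIs (7.77 CPM), and for the controls there were 15 UMIs (2.08 CPM) in the male and 2 UMIs (0.531 CPM) in the female. Thus the V mouse with the higher Aldh3a1 level was the one with the lower Cyp1a1 level. In the V female Aldh3a1 had 23.5 CPM in upper airway against 6.88 CPM in parenchyma, after TMM scaling. The V male section held 1 upper airway spot, and its club cell markers summed to 287 CPM against 1248 to 11257 CPM elsewhere. The part of tissue makeup in the Aldh3a1 levels was not tested.

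In the cytosolic complex, the chaperone genes Hsp90ab1 and Hsp90aa1 were both lower in V without overlap, as were 16.2% of genes tested, and neither was called. Hsp90ab1 had 471 CPM (V male) and 678 CPM (V female) against 775 CPM (NV male) and 1039 CPM (NV female), and Hsp90aa1 had 286 and 293 CPM against 361 and 421 CPM. Of 7 genes for enzymes that make AhR ligands from tryptophan, 4 were tested and none was called, with Kmo at 3.05 to 6.52 CPM, Il4i1 at 3.03 to 9.02 CPM and Kynu at 2.08 to 3.45 CPM. The initiating dioxygenases Ido1, Ido2 and Tdo2 did not exceed 2.57 CPM in any parenchyma.

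Arnt also serves the hypoxia-inducible factors, so their genes were read as a second set of Arnt-dependent targets. None of 4 tested partners and none of 12 hypoxia targets was called between V and NV, with median log2 fold changes of 0.04 and 0.07. Epas1, which encodes the endothelial factor HIF-2α, reached 2896 CPM in the V male, with the other mice at 1854 to 2241 CPM. Hif1a lay between 71.5 and 80.9 CPM and Clock between 29.5 and 40.3 CPM in the 4 mice. Hif3a, singled out after its values had been seen, reached 14.1 CPM in the V male, against 1.07 to 2.39 CPM for the others. Vegfa, a hypoxia target of alveolar type 1 cells, reached 697 CPM in the V male and 549 to 552 CPM elsewhere, whereas Ldha was lowest in the V male, at 259 CPM against 353 to 467 CPM. Pgk1 was also lowest in the V male, at 93.2 CPM against 114 to 153 CPM after TMM scaling.

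Regions of the sections differed in 2 of these genes. Upper airway and parenchyma were compared within the 3 mice that held at least 50 spots of each, with the mouse as a block, and the region was not defined by any of the 6 genes. Cyp1b1 was higher in the upper airway and Ahr was lower there, while Cyp1a1, Tiparp and Arnt did not pass the test. The test called 41.5% of 13526 genes, 22.7% higher and 18.8% lower, so that 2 of 5 members called is close to the share over all genes. Without cardiac muscle spots it called 29.4% of 13519 genes, and Cyp1b1 and Ahr were called in the same directions.

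Upper airway spots of the NV male held Cyp1b1 at 18.9 CPM, against 4.85 CPM in its parenchyma. For the NV female these levels were 27.6 and 5.57 CPM, and for the V female 14.6 and 6.37 CPM. It was higher in the upper airway of all 3, by 2.29 to 4.95 times, and the log2 fold change was 2.10 (SE 0.23, adjusted p = 7.69e-05, edgeR's quasi-likelihood test). In cardiac muscle spots alone it had 17.6 to 20.7 CPM, and in the remaining upper airway spots 17.1 CPM (4 UMIs in 22 spots of the NV male), 34.9 CPM (NV female) and 13.3 CPM (V female). Without cardiac muscle spots the log2 fold change was 1.97 (SE 0.30, adjusted p = 4.88e-05, edgeR).

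Ahr in the NV male went from 69.0 CPM (parenchyma) to 32.2 CPM (upper airway). The NV female went from 58.4 to 15.7 CPM and the V female from 67.4 to 26.9 CPM. The receptor was thus lower in the upper airway of all 3, at 0.269 to 0.467 times the parenchymal level, with a log2 fold change of −0.98 (SE 0.16, adjusted p = 0.000746, edgeR). Cardiac muscle spots alone had 10.98 to 29.9 CPM, and the remaining upper airway spots had 51.4 CPM (12 UMIs, NV male), 20.7 CPM (NV female) and 26.3 CPM (V female). Without cardiac muscle spots the log2 fold change was −0.95 (SE 0.18, adjusted p = 0.000426, edgeR). Cyp1b1, its target, and Ahr were therefore highest in different regions.

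Upper airway levels of Cyp1a1 were 1.84 CPM (NV male), 1.25 CPM (NV female) and 3.58 CPM (V female), each below the 2.91, 2.92 and 5.52 CPM of parenchyma. The fitted log2 fold change was −0.31 (SE 0.31, adjusted p = 0.457, edgeR). Arnt had −0.24 (SE 0.11, adjusted p = 0.116, edgeR) and Tiparp 0.21 (SE 0.13, adjusted p = 0.225, edgeR). Direction depended on the scaling for Tiparp, which was −0.21 with libraries scaled to total UMIs alone, and Arnt passed the test with that scaling (log2 fold change −0.67, adjusted p = 0.00108, edgeR). Scaling to total UMIs moved the median log2 fold change of all genes from −0.03 to −0.45, called 1869 genes higher and 6970 lower in place of 3072 and 2540, and left Cyp1b1 higher (1.68) and Ahr lower (−1.40).

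**Figure D5:**
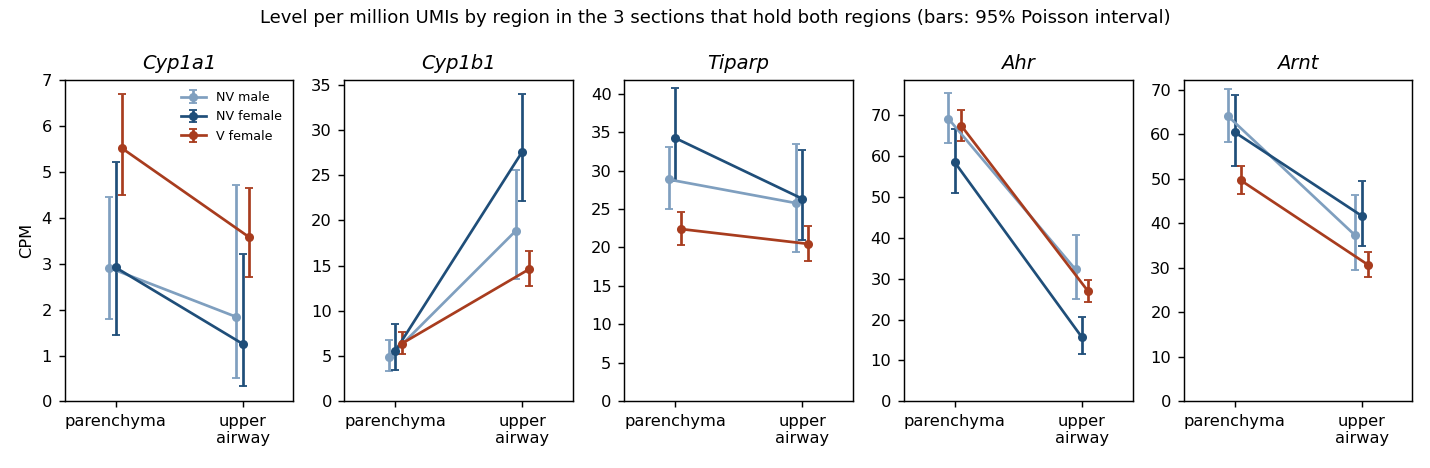
Level of 5 genes in CPM (vertical axes, from 0) in parenchyma and upper airway of the 3 sections that hold both regions, with 95% Poisson intervals and lines joining the 2 regions of a mouse. Cyp1b1 rises from 4.85 to 6.37 CPM in parenchyma to 14.6 to 27.6 CPM in upper airway and Ahr falls in all 3 mice, while scaling here is to total UMIs.

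Among the other AhR-responsive genes, 3 of 5 tested rose in the upper airway and 1 fell, with a median log2 fold change of 0.87. Over all genes 22.7% rose and 18.8% fell, with a median of −0.03. Aldh3a1 rose by 1.64 (SE 0.25), the quinone reductase gene Nqo1 by 1.51 (SE 0.29) and Cyp2s1 by 0.87 (SE 0.18), and Nfe2l2 fell by 0.40 (SE 0.12), all on the log2 scale of edgeR's fit. The kinase gene Src, of the cytosolic complex, fell (−0.89, SE 0.14), and of the ligand makers 0 of 4 were called (Kmo −0.14, Il4i1 −0.06, Kynu −0.93 with SE 0.39). Epas1 fell (−1.15, SE 0.15) and was the single called gene among 4 tested partners of Arnt. Of 11 tested hypoxia targets 7 rose and 1 fell, against the same 22.7% and 18.8% of all genes, with a median of 0.52. The prolyl hydroxylase gene Egln3 rose by 1.89 (SE 0.25), and the glycolytic and mitochondrial genes Pgk1 (1.32, SE 0.11), Pdk1 (1.29, SE 0.12) and Bnip3 (1.18, SE 0.12) rose with it, whereas Vegfa fell (−1.02, SE 0.11). Without cardiac muscle spots 6 of 11 tested hypoxia targets rose and 1 fell, Egln3, Pgk1, Pdk1, Bnip3 and Vegfa among them. Of 5 tested AhR-responsive genes 2 rose (Aldh3a1 and Cyp2s1) and none fell. Over all genes 16.1% rose and 13.4% fell without those spots. Nqo1 (adjusted p = 0.102, edgeR) and Nfe2l2 (adjusted p = 0.124, edgeR) no longer passed the test there.

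Whether other genes of the pathway were higher where Cyp1a1 was found was asked by comparing parenchyma spots with and without a Cyp1a1 UMI within each of the 4 mice. The V male had 763 spots with and 801 without, the V female 94 and 1526, the NV male 20 and 664, and the NV female 9 and 339. Spots with Cyp1a1 were deeper, with medians of 8148 to 16335 UMIs against 4862 to 9766.5. Leaving out Cyp1a1 itself, edgeR called 7 of 12814 genes (0.0546%), 1 higher (0.00780%) and 6 lower (0.0468%), and none was a member or a gene of the pathway lists. When spots were classed after thinning to 3000 UMIs, 0 genes were called by edgeR, with 284 at an unadjusted p under 0.05.

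Tiparp had the highest value of the 4 members tested, a log2 fold change of 0.31 (SE 0.13, adjusted p = 0.929, edgeR), and 0.11 (SE 0.19) with spots classed after thinning. Ahr gave −0.10 (SE 0.09), Arnt −0.02 (SE 0.09) and Cyp1b1 −0.21 (SE 0.41), each with an adjusted p of 0.999 by edgeR. In V male spots with 0, 1, 2 and 3 or more Cyp1a1 UMIs, Tiparp had 33.9, 39.4, 43.4 and 37.9 CPM, Ahr had 62.9, 57.8, 58.6 and 66.9 CPM, and Arnt had 73.9, 80.5, 77.3 and 68.8 CPM. None of the 3 rose or fell steadily with Cyp1a1. After thinning, Tiparp was found in 13.6% (10.4 to 17.5) of V male spots with Cyp1a1 and in 9.88% (8.08 to 11.9) of those without.

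The gene called higher in Cyp1a1 spots was Ccl21a, the chemokine of lymphatic endothelium (log2 fold change 0.39, SE 0.06, adjusted p = 6.43e-08, edgeR). The spread in this fit was pooled largely over genes, so p and SE here do not measure how a gene's change differs between the 4 mice. With no mouse block the log2 fold change of Ccl21a was 0.30 (SE 0.29). Spots with Cyp1a1 had 280.1 CPM and those without 207 CPM in the V male, followed by 243 against 179 CPM (V female), 216 against 192 CPM (NV male) and 84.0 against 119 CPM (NV female), so 3 of 4 mice shared the direction. Ccl21a was called in 7 of 13 alternatives. It was not called without the V male (adjusted p = 0.457, edgeR), without the V female (adjusted p = 0.517, edgeR), by DESeq2, with no mouse block, over all spots, or with spots classed after thinning (log2 fold change 0.08). The other 3 lymphatic markers (Mmrn1, Prox1 and Flt4) were not called. The 5 lower genes with the largest changes were Lars2 (−0.56), Pf4 (−0.53), Gm42418 (−0.45), which overlaps a ribosomal RNA unit, and the club cell genes Scgb1a1 and Cyp2f2 (both −0.37). Of 22 marker lists, lymphatic had 1 of 4 genes higher, club had 1 of 4 lower and the others had none called, including 0 of 7 for general endothelium, 0 of 5 for alveolar type 1 cells and 0 of 6 for alveolar type 2 cells. Median log2 fold changes of the lists ran from −0.21 for club to 0.22 for large vessel, whose summed level was 1.14 to 1.69 times as high in Cyp1a1 spots over the 4 mice.

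Spot by spot, no gene tracked Cyp1a1 closely. Over 1564 V male parenchyma spots, Pearson correlations of log-scaled levels with Cyp1a1 ran from −0.148 to 0.133 over 10529 genes. The 10 highest were 2410006H16Rik, Itgb5, Egfl7, Tuba1b, Itgb1, Anxa1, Parl, Lrch3, Adh5 and Eif5a, at 0.110 to 0.133, and in the V female the same genes gave 0.0019 to 0.0594. Such values in sparse counts are no finding. With Tiparp the correlation was 0.0565, with Arnt 0.0408, with Ahr 0.0382 and with Cyp1b1 −0.0344, and Ahrr had no UMI to correlate. For Tiparp the 5 highest were H2-Q7, Trp53, Zfand2b, Irs2 and Gtf3c3, at 0.104 to 0.120.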

How the data were processed

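1 lung section of each of 4 mice was measured by Visium. SpaceRanger and the mm10 reference were used by the authors, and the deposited values are raw UMI counts for every gene in every spot under tissue. Samples were processed together per the study's methods. Counts were summed per mouse and region or spot class, since spots of a section are not replicates, and levels are given as CPM, per 1000000 total UMIs, unless TMM scaling is named. Members, gene lists and the tests were chosen with earlier results of these data known.

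The quasi-likelihood test of edgeR 4.0.16 (R 4.3.3) was applied to sums after TMM and filterByExpr, with Benjamini-Hochberg adjustment over all genes tested. Regions and spot classes were blocked by mouse. A call required an adjusted p below 0.05 and a log2 fold change beyond 0.25 in either direction. In simulated data, 200 genes were given a log2 fold change of 2 in size, with a dispersion of 0.05 for every gene. In the V against NV design 96.5% of them were recovered among 14116 genes. It was 96.5% among 13423 genes in the region design and 93.5% among 12630 genes in the spot class design. The fitted biological coefficient of variation, the square root of the dispersion, was 0.293 for V against NV, above the simulated one. The share recovered there is therefore no measure of what that test could find in these mice. DESeq2 1.42.0, its size factors, total UMI scaling and upper airway without cardiac muscle spots (both added after the data had been seen), no filter, other region and spot rules and each mouse left out were the alternatives. Total UMIs per section were 9386470 (NV male), 6957392 (NV female), 11880468 (V male) and 34308556 (V female), and the precision of a level is set by its own UMI count.

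Named genes were the 6 members, the up to 4 called genes of each pathway list with the largest changes or, where none was called, up to 3 with the highest levels, the 10 most correlated with Cyp1a1, the 5 most correlated with Tiparp, and the up to 5 called higher and 5 called lower in Cyp1a1 spots at a mean of 20 CPM or more. Exceptions are marked in the text. Counts over the genes of the cytosolic complex are not reported here. Gene coordinates come from GENCODE vM21 on GRCm38 and promoters from RefSeq. Spot positions were not used here.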

Additional observations from a re-analysis of the deposited data

Results flagged for a closer look

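The V over NV ratio of the parenchyma level went in opposite directions in the male pair and the female pair for 4 of the 6 genes. Ahrr could not be scored, as the NV female held 0 UMIs of it and so gave no ratio. The share of all genes with opposite directions was not computed, so no excess among these genes is shown. For Cyp1b1 the ratio was 0.278 in males and 1.14 in females, and for Tiparp it was 1.31 in males and 0.654 in females. Ahr gave 0.891 in males and 1.15 in females, whereas Arnt gave 1.18 in males and 0.821 in females. With 1 mouse of each sex in each group the difference between sexes was not tested, and it cannot be told apart from differences between single mice. Cyp1a1 was higher in V in both sexes, by 39.8 times in males and 1.89 times in females.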

How the results depend on the processing

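The count of genes called between V and NV in parenchyma was 0 in the fit reported, 9 by DESeq2's Wald test and 5 with no filter on low counts. It ranged from 0 to 1483 when each mouse was left out, with 291 without the V male and 1483 without the V female, fits in which the lone V mouse is assumed to vary like the NV mice. It was 0 with total UMIs, with DESeq2 size factors, at the 25% region limit, over whole sections and with the replicate number, which is sex here, as a block. The numbers are not shown to pair the mice (correlation of deviations 0.054), so the block was used as an alternative only. The fitted Cyp1a1 difference was 0.95 without the V male and stayed positive under all 11 alternatives. That sign says little, since both V levels lay above both NV levels and Cyp1a1 was chosen with them known.

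Between regions, total UMI scaling called 8839 genes in place of 5612, and leaving out each mouse gave 4244 to 5898. Cyp1b1 was called higher and Ahr lower under all 10 alternatives, and Arnt was called under total UMI scaling alone. With no mouse block 3921 genes were called, and without cardiac muscle spots 3980. For Cyp1a1 spots, calls numbered 2 by DESeq2, 14 at the 25% region limit, 0 with no mouse block, 32 over all spots, 0 with spots classed after thinning, 4 against depth-matched spots and 5 to 8 with each mouse left out. Depth matching left V male spots without Cyp1a1 shallower (median 5117 against 8148 UMIs). None of the members tested there was called under any alternative.

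Shares of spots with Cyp1a1 depend on depth. Thinned to 1000 UMIs they were 10.9% (V male), 0.19% (V female), 0.300% (NV male) and 0% (NV female), so the V female lay below the NV male. Unthinned they were 48.8%, 5.80% and 2.59% in these and 2.92% in the NV male, and with at least 2 UMIs 22.4% (V male), 0.556% (V female), 0.146% (NV male) and 0.575% (NV female), so the V female lay below the NV female. The V male share remained the highest under each. Depth limits Ahrr and Cyp1a2 in every section, and Cyp1a1 in all but the V male.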
